A study of Homo sapiens with 13 samples.

Results

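Dense clusters of FOXA1 binding sites in the endometrial cancer cell line Ishikawa are described here. A cluster was defined on the authors' Ishikawa peak list. The peak centres of each chromosome were sorted, neighbours at most 20 kb apart were linked, and linked runs of at least 5 peaks were kept. On the 22 autosomes the rule found 943 clusters with 5817 of 52874 peaks, which was 11.00% of them. A further 25803 peaks lay in 10576 runs of 2 to 4, and 21254 peaks were isolated, with no neighbour within 20 kb. The 1981 Ishikawa peaks on chromosomes X and Y were left out by the rule.

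FOXA1 is a forkhead transcription factor. Its winged-helix domain can bind its motif in compacted chromatin, and it is therefore called a pioneer factor. In breast, prostate and uterine epithelium it is known for making enhancers accessible to steroid hormone receptors. Enhancers of genes that define a cell type often lie close together, and such groups are known as clustered or super-enhancers. A group of neighbouring FOXA1 peaks is one way in which such a domain can appear in a ChIP-seq list, but peaks of 1 factor alone do not define one.

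The study used ChIP-seq, in which DNA bound to an immunoprecipitated protein is sequenced, to map FOXA1 in Ishikawa and Hec1A, both established lines from human endometrial adenocarcinoma. Ishikawa had 6 FOXA1 ChIP and 2 input libraries and Hec1A had 3 and 2, where input is chromatin sequenced without immunoprecipitation. All ChIP libraries used the same rabbit FoxA1 antibody, and the labels name no treatment or genotype. The authors pooled the ChIP libraries of each line, 343739762 tags in Ishikawa and 143055568 tags in Hec1A, and called 1 list per line, with 54855 and 13252 peaks. A tag is a mapped read, counted at its 5′ end. Scores, folds and signals of peaks are the authors' own. No value below has a replicate error, and intervals are 95% Wilson intervals that cover counting error and treat peaks as independent, which neighbours in a cluster are not. The Ishikawa list was filtered on input. The recorded Hec1A command names no input, although the name given to that list refers to inputs. The headers give 9.66% of tags in peaks for Ishikawa and 1.12% for Hec1A. An Ishikawa peak without a Hec1A partner is a site not listed in Hec1A, which is not the same as not bound. Positions are those of hg19. Gene positions and sequences on that build were not used here, so clusters are named by position.

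Most clusters were close to the smallest size that the rule admits. Of the 943, 453 held 5 peaks, 246 held 6, and 52 held 10 or more, up to 21. The median cluster spanned 47.8 kb (quartiles 37.1 to 59.2 kb, range 14.1 to 190.2 kb). Neighbouring centres within clusters lay 9.38 kb apart in the median, and 356 of 4874 such gaps (7.30%) were under 2000 bp. Peak width was fixed at 353 bp by the authors, so clusters were groups of separate short intervals. In both lines runs of 5 were fewer than runs of 4 and more than runs of 6, with no gap in the distribution at the limit of 5.

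**Figure D1:**
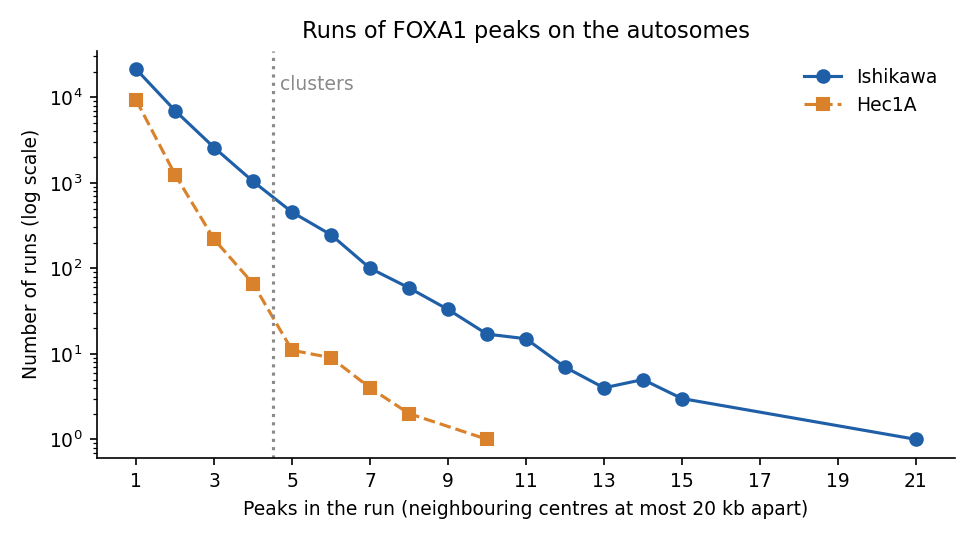
Number of runs of neighbouring FOXA1 peaks on the autosomes (log scale) against the number of peaks in the run, for Ishikawa (circles) and Hec1A (squares). The dotted line marks the limit of 5 peaks, to the right of which lie 943 Ishikawa and 27 Hec1A runs.

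The limits of the rule fell within a continuum. The 1036 runs of exactly 4 peaks, just outside, had a median span of 30.8 kb and a median summed signal of 58.6 tags per 10000000 tags. The 453 runs of exactly 5, just inside, had 39.0 kb and 79.1. In 156 clusters the widest internal gap was over 19 kb, and 49 clusters had a further peak at most 21 kb outside. Of the pairs of neighbouring clusters on a chromosome, 94 were at most 100 kb apart.

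Clustered peaks had higher signals than isolated ones. Signal here is the authors' normalized tag count, in tags per 10000000. Its median was 13.1 in clustered peaks (quartiles 8.44 to 23.4), 10.2 in runs of 2 to 4 and 8.73 in isolated peaks (6.14 to 14.3). As the same peaks chose the clusters, these values are a description. Clusters held 11.00% of the autosomal peaks and 15.5% of their summed signal. Of the 100 autosomal peaks of highest signal 27 lay in clusters and 24 were isolated, and of the first 1000 the numbers were 218 and 300.

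The higher signal did not come with a higher contrast to the surroundings. The median fold over the local 10000 bp was 6.86 in clustered and 7.01 in isolated peaks. The local level, computed as signal divided by that fold, was 1.75 and 1.24 tags per 10000000. Within clusters, the 1734 peaks with a neighbour within 5 kb had a median fold of 5.87 and a local level of 2.44, and the 4083 others 7.50 and 1.55. A neighbour so close lies within the region from which the local level is taken. Median input tags per peak were 6 in clustered and 5 in isolated peaks, and the median fold over input was 8.94 and 7.38. The focus ratio, the authors' measure of how tightly tags surround the centre, was 0.826 and 0.829.

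Summed signal varied more than size. It ranged from 27.5 to 1145.2 tags per 10000000, with a median of 107.1 (quartiles 68.7 to 179.9). In the median cluster the strongest peak held 35.5% of the sum, and in 205 of 943 clusters it held over 50%. The strongest peak lay at an edge in 330 clusters (35.0%, 32.0% to 38.1%), and edge peaks made up 34.2% of a cluster's peaks on average. Across the 943 clusters, size and summed signal had a Spearman rho of 0.49 and a Pearson r of 0.55, as a description of quantities that share the same peaks.

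**Figure D2:**
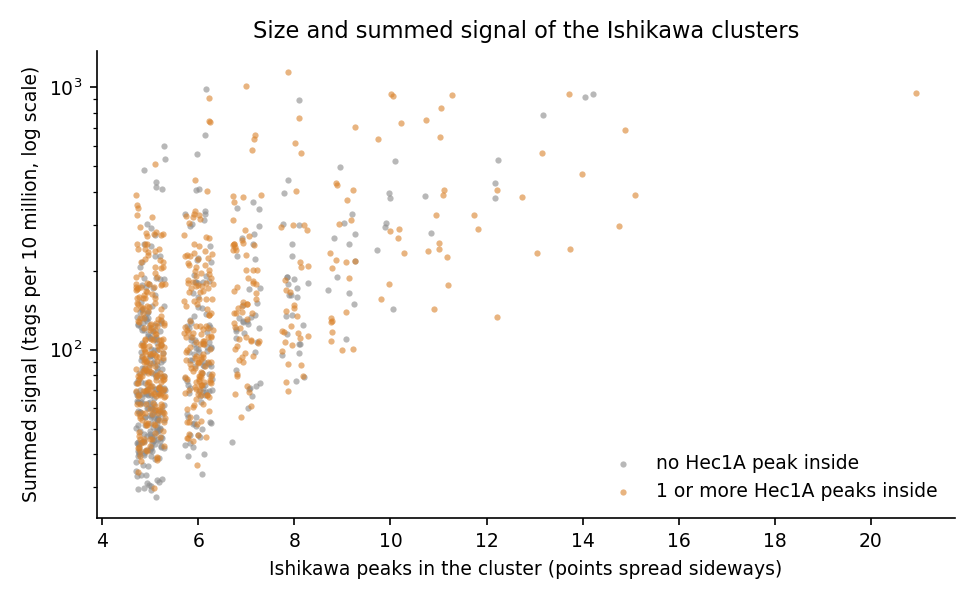
Summed Ishikawa signal of each of the 943 clusters (tags per 10000000, log scale) against its number of peaks, coloured by whether a Hec1A peak centre lies inside. Points are spread sideways for visibility. Clusters with and without Hec1A peaks overlap over most of the range, and the cluster of 21 peaks stands apart in size.

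The cluster with the most peaks lay on chromosome 3, 29376886 to 29567116. Its 21 peaks spanned 190.2 kb, with a lowest signal of 7.33, a median of 19.7 and a highest of 289.3 tags per 10000000. The strongest stood 150.8 kb from the start, and the next had a signal of 159.7 at 130.6 kb. Of the 21 peaks 2 had a Hec1A partner, and these were the strongest, with a Hec1A signal of 72, and a peak of 38 at 10.7 kb, with 7.62. The remaining 19, among them peaks of 159.7 and 92.1, had none.

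A second large cluster, on chromosome 12 from 46736918 to 46886677, was built differently. Its 15 peaks ranged from 19.6 to 147.7 with a median of 39.2, and the strongest held 21.5% of the sum. In Hec1A 7 of the 15 were listed, spread from one end to the other. The Hec1A signals ran from 2.38 to 25.9 and were highest at the peaks 130.7 and 149.6 kb from the start. The strongest Ishikawa peak, at 11.8 kb, had no Hec1A partner. Median input in this cluster was 12 tags per peak.

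On chromosome 6, from 122328941 to 122426216, 14 peaks formed a cluster with no Hec1A peak. Signals were highest near the middle, with 88.2 at 38.4 kb, 144.3 at 52.4 kb, 235.7 at 62.3 kb and 141.5 at 67.4 kb, and were 8.84 at the far end. The sum was 943.03, and the nearest Hec1A peak was 371.2 kb away. The cluster on chromosome 3 from 168897102 to 169005268 also had 14 peaks, a sum of 920.1 and no Hec1A peak within 120.5 kb. Its median input was 10.5 tags per peak. These were the clusters with the most peaks among those without a Hec1A peak inside. Next came chromosome 14, 68661866 to 68774533, with 13 peaks, chromosome 16, 77305501 to 77408774, with 12, and chromosome 10, 134456323 to 134543539, with 12. Their sums were 782.9, 527.4 and 433.6. On chromosome 14 a Hec1A peak lay 22.8 kb outside the cluster.

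Another 3 of the 8 clusters with the most peaks differed in how far Hec1A followed. On chromosome 1, 201924327 to 202056429, 6 of 15 peaks had a partner, with a sum of 295.3. On chromosome 7, 83588694 to 83721846, 2 of 15 had one, with a sum of 389.4. On chromosome 6, 134287106 to 134384581, none of 14 had one, and the lone Hec1A peak inside had a signal of 3.77. The remaining cluster, on chromosome 1 from 172291614 to 172430558, is among those of highest sum.

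**Figure D3:**
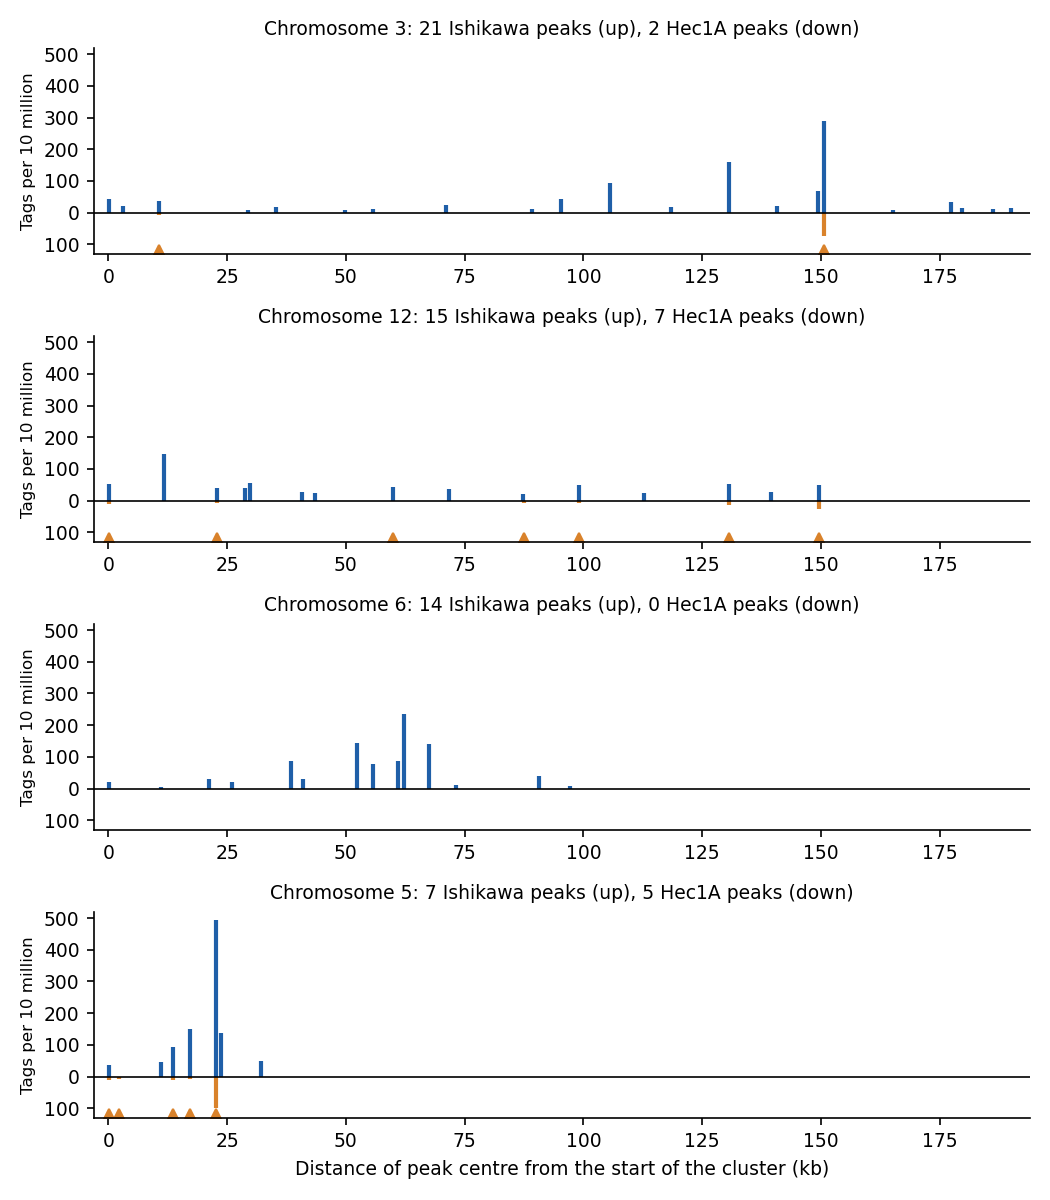
Ishikawa peaks (bars upwards) and Hec1A peaks (bars downwards, each also marked by a triangle) in 4 clusters, plotted by the distance of the peak centre from the start of the cluster in kb. Bar length is the authors' signal in tags per 10000000 of the line's own tags. The 4 panels hold 2, 7, 0 and 5 Hec1A peaks for 21, 15, 14 and 7 Ishikawa peaks.

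The 8 clusters of highest summed signal lay between 935.1 and 1145.2 tags per 10000000, and had from 6 to 21 peaks. The first was on chromosome 12, 52511813 to 52570075, with 8 peaks and a median input of 12 tags per peak. Signals of 553.7 and 370.5 made up most of its sum, and the other 6 lay between 13.7 and 89.4. The peak of 553.7 had no Hec1A partner, while that of 370.5 and those of 20.6 and 15.9 had partners with Hec1A signals of 7.06, 7.97 and 7.06. The Ishikawa signals of these 3 sites ran from 15.9 to 370.5, while the Hec1A values were nearly level.

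The cluster on chromosome 5 from 123974678 to 124006951 was both strong and shared. Its 7 peaks lay within 32.3 kb, with signals of 37.4, 46.9, 92.6, 151.4, 492.9, 138.4 and 49.1 in order along the chromosome. Those of 37.4, 92.6, 151.4 and 492.9, had Hec1A partners, with signals of 10.8, 12, 7.55 and 98.7. The strongest peak was the same in both lines. Another Hec1A peak, of 7.27, lay 2.29 kb from the start and overlapped no Ishikawa peak.

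In the clusters on chromosome 3 from 29376886 and chromosome 6 from 122328941, the strongest peak held 30.3% and 24.99% of the sum. In the other clusters of high sum the strongest peak held from 46.7% to 84.3% of the sum. On chromosome 2, 67264790 to 67322473, the first of 6 peaks had a signal of 827.9 and held 84.3% of the sum. The other 5 lay between 9.02 and 98.9, and the nearest Hec1A peak was 394.7 kb away. On chromosome 9, 123404832 to 123503754, a peak of 597.6 held 63.9%. There the strongest peak had no partner, and the second, of 202.8, had a partner with a Hec1A signal of 52.3. On chromosome 3, 176997018 to 177078042, a peak of 521 at the far end held 54.98% of the sum and had the strongest Hec1A partner, of 76.5. In that cluster the Hec1A peak of 54.9 overlapped an Ishikawa peak of 31.5, and the Ishikawa peak of 146 had no partner. Its median input was 10.5 tags per peak. On chromosome 1, 172291614 to 172430558, the strongest Ishikawa peak, of 439.7, held 46.7% of the sum and had a Hec1A signal of 3.77. The strongest Hec1A peak, of 30.2, overlapped an Ishikawa peak of 23.2.

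The clusters with the most Hec1A peaks inside included 2 on chromosome 17. From 75082799 to 75156811, 7 Ishikawa and 7 Hec1A peaks were listed, 6 of them overlapping. The Ishikawa signals were 13.4, 7.21, 14.7, 16.4, 25.3, 25.8 and 75.5. The first 6 of these had partners with Hec1A signals of 5.1, 27.6, 22.4, 38.9, 8.25 and 10.3. The order of strength therefore differed between the lines, and the strongest Ishikawa peak had no partner. From 8023390 to 8129729, 9 Ishikawa peaks held 4 partners among 7 Hec1A peaks, and the strongest, 277.1 in Ishikawa and 41.2 in Hec1A, was the same site. On chromosome 10, 95180900 to 95265354, the peak of 787.8 held 85.2% of the sum. It also carried the strongest Hec1A partner, of 68.2, among 5 partners for 10 peaks.

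The densest clusters of at least 8 peaks were smaller. On chromosome 10, 126718214 to 126753725, 8 peaks lay in 35.5 kb with signals from 6.25 to 29.1, and no Hec1A peak was within 91.8 kb. On chromosome 1, 56982562 to 57045845, 12 peaks lay in 63.3 kb and 1 had a partner. On chromosome 19, 18475886 to 18519252, 8 peaks lay in 43.4 kb and 5 had partners. These 3 clusters had sums of 123.8, 288.8 and 169.1.

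Hec1A peaks took no part in the rule, and were therefore read as a separate measure of the same sites. A peak was counted as having a partner when it overlapped a Hec1A peak by at least 1 bp. Of the 5817 clustered peaks 831 had a partner, or 14.3% (13.4% to 15.2%), where the share over all autosomal Ishikawa peaks was 12.8%. It was 12.9% (12.5% to 13.3%) in runs of 2 to 4 and 12.4% (11.9% to 12.8%) in isolated peaks. The clustered share was the higher on 15 of 22 chromosomes. When clusters were formed anew from stricter Ishikawa lists, the order against all peaks turned. Peaks with a local fold of 8 or more gave 40 clusters of 208 peaks, of which 17.3% had a partner, against 24.2% of all such peaks. Peaks with an input fold of 8 or more gave 165 clusters of 979 peaks, with 14.4% against 18.8%. These clusters differ from those of the main rule, so the shares do not describe the 5817 peaks at that strength. No replicate lists were at hand against which to test these differences.

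Counted by cluster, 534 of 943 (56.6%, 53.4% to 59.8%) had a Hec1A centre inside, and 409 had none. Over Ishikawa runs of any size, isolated peaks included, the share was 18.9%. A longer run offers more room for a Hec1A peak, so runs on both sides of the limit are the closer comparison. The share was 43.1% (40.1% to 46.1%) for runs of exactly 4 and 50.1% (45.5% to 54.7%) for runs of exactly 5. It was 61.4% for clusters of 6, 65.0% for clusters of 7, 58.7% for those of 8 or 9 and 71.2% (57.7% to 81.7%) for the 52 clusters of 10 or more. Per peak, however, the partner share had no order by size. It was 13.6% in clusters of 5, 15.2% in clusters of 6, 16.4% in clusters of 7, 12.2% in clusters of 8 or 9 and 14.8% in those of 10 or more.

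Clusters with a Hec1A peak inside mostly held few of them. A Hec1A peak inside need not overlap an Ishikawa peak, and 488 clusters had at least 1 peak with a partner. A lone Hec1A peak was inside 269 clusters, 147 had 2, 68 had 3 and 50 had from 4 to 7. Clusters with a Hec1A peak inside had a median of 6 Ishikawa peaks and a summed signal of 118.9, and those without had 5 and 89.5. Of the 409 clusters without one, 366 had no Hec1A peak within 20 kb and 193 had none within 100 kb. The largest distance was 1194 kb.

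At like score, the order of clustered and isolated peaks turned. The findPeaks score is a tag number that the authors' peak caller gives. All autosomal peaks were ranked by it and divided into 10 classes of equal number. In the highest class 301 of 964 clustered peaks had a partner (31.2%, 28.4% to 34.2%), and 711 of 1686 isolated peaks (42.2%, 39.8% to 44.5%). In the class below, the shares were 20.4% (17.8% to 23.2%) and 31.4% (29.2% to 33.6%). The clustered share was the lower in 8 of 10 classes, and the mean over the classes was 11.1% for clustered and 14.2% for isolated peaks. Among the 20% of peaks with the highest scores it was lower on 20 of 22 chromosomes. Clustered peaks had the higher scores, with a median of 432 against 282 in isolated peaks.

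**Figure D4:**
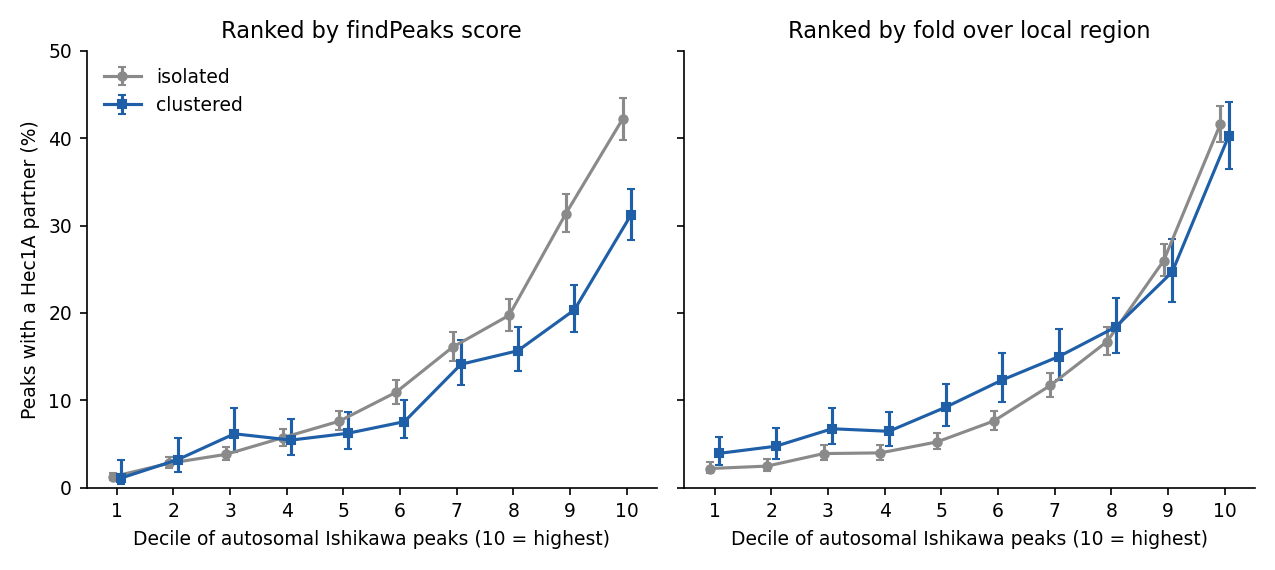
Share of clustered (squares) and isolated (circles) Ishikawa peaks with a Hec1A partner, in percent, by decile of all autosomal Ishikawa peaks, with 95% Wilson intervals. Ranked by score (left), clustered peaks lie below isolated ones at the top (31.2% and 42.2%). Ranked by fold over the local region (right), they do not (40.3% and 41.6%).

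This order depended on the measure of strength. Ranked by signal, the highest classes had 31.0% and 41.4%. Ranked by fold over input, the shares were 29.1% and 32.3%. In that ranking the clustered share was the lower in 4 of 10 classes, and the means over the classes were 13.1% for clustered and 12.9% for isolated peaks. Ranked by fold over the local region, the highest classes had 40.3% and 41.6%. There the clustered share was the lower in 2 of 10 classes, and the means over the classes were 14.2% for clustered and 12.2% for isolated peaks. Within clusters, the median fold over the local region was lower in peaks with a neighbour within 5 kb, as given above. Those peaks also had a higher median signal than the other clustered peaks (15.3 against 11.9) and a lower partner share (13.0% against 14.8%). Which of these rankings compares like sites was not tested.

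Within clusters, the partner share was ordered by signal. This was not particular to clusters. From the lowest to the highest of 10 signal classes, the share rose from 2.41% to 41.4% in isolated peaks. In runs of 2 to 4 it rose from 2.53% to 39.3%. The strongest peak of a cluster had a partner in 277 of 943 cases (29.4%, 26.6% to 32.4%). The second had one in 19.3%, the third in 13.1%, the fourth in 9.86% and the fifth in 7.64%, with median signals of 39.2, 20.3, 14.3, 11 and 8.35. Edge peaks had a partner in 13.8% of cases (12.3% to 15.4%) and inner peaks in 14.5% (13.5% to 15.7%), and these intervals overlapped. In clusters where the strongest peak held over 50% of the sum, it had a partner in 51.2% of 205 cases (44.4% to 58.0%). In the other 738 clusters the share was 23.3% (20.4% to 26.5%). The median signal of that strongest peak was 113.1 and 30.3.

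The site shared was often not the strongest, although the strongest peak had the highest partner share of the ranks given above. Of 488 clusters with at least 1 partner, the strongest peak was among the partners in 277 (56.8%). Where exactly 1 peak had a partner, it was the strongest in 120 of 268 clusters (44.8%, 38.9% to 50.8%). Where exactly 2 had partners and the values were not tied, the stronger in Ishikawa was also the stronger in Hec1A in 100 of 136 clusters (73.5%, 65.5% to 80.2%). With 3 or more, the strongest of the peaks with a partner was the same in both lines in 43 of 84 (51.2%, 40.7% to 61.6%). By order alone such matches become rarer with more peaks to choose from, to an extent not computed here. The shares in this paragraph therefore do not rank the agreement between the lines.

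Peaks of like signal were then compared by their place. Among autosomal peaks with a signal of 53.5 or more, 41.1% of 355 strongest peaks of a cluster had a partner (36.1% to 46.3%). The share was 25.8% of 163 other clustered peaks (19.7% to 33.0%) and 46.9% of 814 isolated peaks (43.5% to 50.4%). Signals still differed within that class, with medians of 99.5, 80.1 and 84.0. In the class from 32.7 to 53.5 the shares were 29.4%, 21.8% and 36.1%, and in that from 24.3 to 32.7 they were 28.5%, 18.5% and 33.7%. In these 3 classes the clustered peaks that were not the strongest of their cluster had the lowest share. In the class from 19.5 to 24.3 the strongest and the other clustered peaks lay together, at 19.3% and 19.9%.

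**Figure D5:**
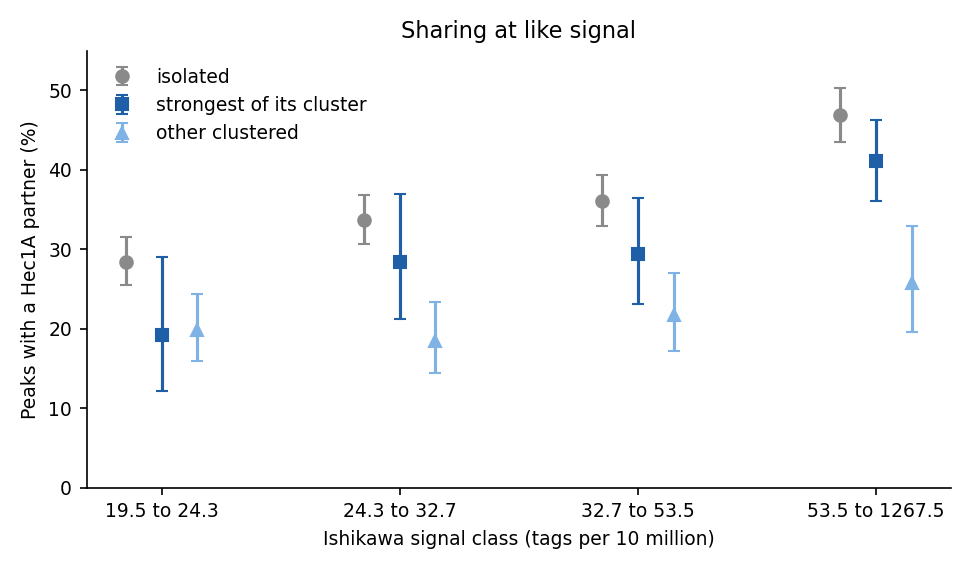
Share of Ishikawa peaks with a Hec1A partner, in percent, in 4 classes of Ishikawa signal that each hold a 20th of the autosomal peaks, for isolated peaks (circles), the strongest peak of a cluster (squares) and other clustered peaks (triangles). Bars are 95% Wilson intervals. In the class of highest signal the shares are 46.9%, 41.1% and 25.8%.

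Seen from the Hec1A list, clusters held 992 of 12818 autosomal peaks (7.74%) in 48.0 Mb, or 20.7 per Mb. Between the first and the last Ishikawa peak of each autosome there were 4.60 per Mb. The density inside shorter runs of Ishikawa peaks was not compared, so these values do not show whether a high density was particular to clusters. Of the 992, 826 overlapped an Ishikawa peak (83.3%, 80.8% to 85.5%), where the share over all autosomal Hec1A peaks was 53.0%. Cluster spans are rich in Ishikawa peaks by the rule, so a higher share inside them was set in advance to an extent that was not measured. Hec1A peaks without a partner were also denser inside clusters, at 3.46 per Mb against 2.16. The autosomal length includes stretches where reads cannot be placed, and cluster spans by their definition begin and end at peaks.

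Hec1A signals at clustered sites were slightly higher than elsewhere. The median was 6.36 tags per 10000000 at 831 partners of clustered peaks (quartiles 4.12 to 11.45), 5.66 at partners in runs of 2 to 4 and 5.38 at partners of isolated peaks (3.63 to 8.95). The folds over the local region were alike, with 6.49, 6.36 and 6.40. The clonal fold compares expected with observed tag positions and is high where tags stack on few positions. It was above 1 in 16.0% of partners of clustered peaks (13.7% to 18.7%) and 13.6% of partners of isolated peaks (12.4% to 14.998%). At partners in runs of 2 to 4 the share was 12.5% (11.4% to 13.7%). Of the 166 Hec1A peaks that lay inside a cluster without overlapping a peak, 42.8% had such a fold (35.5% to 50.4%). The share was 46.4% (45.1% to 47.6%) over all 6027 autosomal Hec1A peaks without an Ishikawa partner, so it was not particular to clusters. These 166 lay a median of 2.88 kb from the nearest Ishikawa centre, and 35 were within 1 kb.

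Clusters were unevenly spread over the chromosomes. Chromosome 19 had the highest share of its Ishikawa peaks in clusters, 17.5% of 1270 (15.5% to 19.7%), followed by chromosome 12 with 15.9% of 2940 (14.6% to 17.2%). The other autosomes lay between 8.72%, on chromosome 21, and 12.5%, on chromosome 17. On chromosome 12 the mean input per Ishikawa peak was 7.88 tags, and 5.31 on the other autosomes. Among clustered peaks it was 8.65 and 6.01. On chromosome 19 it was 5.36. The part of the input level in the number of clusters was not tested.

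Chromosomes 17 and 19 stood out in sharing. A Hec1A peak lay inside 32 of 34 clusters on chromosome 17 (94.1%, 80.9% to 98.4%) and 33 of 38 on chromosome 19 (86.8%, 72.7% to 94.2%). Over the other autosomes the share was 53.8% (50.5% to 57.1%), from 39.4% on chromosome 14 to 64.4% on chromosome 12. Clustered peaks had a partner in 24.5% and 30.2% of cases on chromosomes 17 and 19. Isolated peaks did so in 19.4% and 21.96%, so sharing was high there outside clusters too. These chromosomes held 5.57% and 4.20% of the Hec1A peaks, and 3.26% and 2.40% of the Ishikawa peaks. Among the highest-scoring 20%, chromosome 19 was one of 2 chromosomes where clustered peaks were not below isolated ones, with 58.8% and 55.3%. Chromosome 21, with 14 such clustered peaks, was the other.

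The same linking rule found 27 runs of at least 5 peaks in the Hec1A list. They held 163 peaks, or 1.27% of that list, and 10 overlapped 11 Ishikawa clusters. The largest had 10 peaks over 109.5 kb on chromosome 17, from 75048966 to 75158475, and took in the cluster of 7 shared above. Its median clonal fold was 1.12. Another, with 5 peaks on chromosome 5 from 123974717 to 123997380, lay within the strong cluster described there. In 4 of the 27 no Ishikawa peak lay inside, and 3 of these had a median clonal fold above 1, namely 7 peaks on chromosome 4 and 5 and 7 peaks on chromosome 16. As the Hec1A list is shorter and less deep, its few runs do not compare clustering between the lines.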

How the data were processed

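FOXA1 ChIP-seq peak lists of Ishikawa and Hec1A were used, 1 per line, called on pooled libraries. The submitters' processing notes name HOMER 4.7.2, Bowtie 1.1.2, SAMtools 1.3.1 and the build hg19. Per the file headers, peaks passed a false discovery rate of 0.001, a fold of 4 over the local 10000 bp, a clonality limit of 2 and, in Ishikawa, a fold of 4 over input. The deposited signal is tags per 10000000. The deposited focus ratio is a fraction and the deposited score a tag number. The deposited folds are ratios, and the authors' p-values were not used.

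Runs were linked with Python 3.11.15 and pandas 2.3.3, and shares carry 95% Wilson intervals from scipy 1.17.1. The linking and overlap steps were tested on simulated lists with planted clusters and partners. The clusters and measures were chosen with earlier results of these data known. Named clusters are the 8 with the most peaks, the 8 of highest summed signal, the 5 with the most Hec1A peaks, the 5 largest without one and the 3 densest of at least 8 peaks. With 1 list per line, differences carry no test. Planned gene, motif and library analyses were not run, as hg19 annotation, sequence and values per library were not used here.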

Additional observations from a re-analysis of the deposited data

How the results depend on the processing

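Of 46 alternatives, 17 stayed within the interval of the reported value (within 1.5 times for counts) and 29 did not. The number of clusters, 943, was 40 at an Ishikawa local fold of at least 8, 165 at an input fold of at least 8, 127 with linking at 10 kb, 2867 at 40 kb, 1979 with 4 or more peaks and 144 with 8 or more. The share of peaks in clusters, 11.00%, was 0.986%, 3.83%, 1.31%, 40.5%, 18.8% and 2.60% in these settings, and 10.7% without chromosome 12. These changes follow from the rule. The partner share of clustered peaks, 14.3%, was 17.3% in clusters formed anew at a local fold of at least 8. This was under the 24.2% of all peaks there, so its side of the background turned. The share was also under the background in clusters formed anew at an input fold of at least 8 (14.4% against 18.8%). It was 16.6% with linking at 10 kb and 13.4% with 8 or more peaks, against 12.8% of all peaks. With centres within 1 kb it was 15.3% against 13.5%, and without chromosomes 17 and 19 13.2% against 12.3%. With Hec1A peaks of a local fold of at least 8 it was 5.38% against 4.46%. With Hec1A peaks of a clonal fold of 1 or less it was 11.999% against 11.1%. The share of clusters with a Hec1A peak, 56.6%, was 62.5% at an Ishikawa local fold of at least 8, 63.7% with linking at 40 kb, 49.5% and 63.2% with 4 and 8 or more peaks, and 51.7% when a cluster peak had to be overlapped. It was 27.8% and 49.0% with the stricter Hec1A lists. The difference between clustered and isolated peaks in the highest score class, -10.9 points (-14.7 to -7.15), was -1.32 points (-5.63 to 3.09) ranked by local fold and -3.20 points (-6.91 to 0.624) ranked by input fold. It stayed within its interval in 5 other settings. Settings on chromosomes and rankings, and the stricter Hec1A lists for the highest score class, were chosen after seeing the data, and the cause of these shifts was not tested. Libraries were not left out in turn. No paired analysis was possible because each list comes from pooled libraries.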

Other observations

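Chromosome X was outside the rule. By the same linking it held 20 clusters with 113 of its 1980 Ishikawa peaks, or 5.71% (95% Wilson interval 4.77% to 6.82%), below the 8.72% to 17.5% of the autosomes. The largest had 8 peaks. Of the 113 peaks 16 had a Hec1A partner (14.2%, 8.91% to 21.8%), and 12 of the 20 clusters had a Hec1A peak inside. Both lie near the autosomal 14.3% and 56.6%.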
